A study of Homo sapiens with 6 samples.

Results

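The replacement histone variants described here are 8 genes whose histones enter chromatin outside the bulk supply of S phase: H2AFX, H2AFZ, H2AFV, H2AFY, H2AFY2, H3F3A, H3F3B and H1FX. They were chosen by name, with earlier results of these data known. Of the 8, 7 were listed in the tables of all 3 times, among 11886 genes that were. H2AFY was listed at 0 and 3 h only and was tested only with the genes listed at any time. Transcripts were measured by RNA sequencing of U2OS, a human osteosarcoma cell line, in 6 libraries. Cells carried either siRNA against E2F7 (siE2F7) or a non-targeting control siRNA (siNT). All of them had been blocked at the G1/S boundary with 4 mM hydroxyurea for 24 h, washed and then harvested at 0 h (G1/S), 3 h (S phase) or 12 h (G2/M boundary). The siE2F7 group and the siNT group had 1 library at each time, so every library is a lone sample of its arm and time, and the control arm went through the same drug block.

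E2F7 is an atypical E2F factor that binds E2F sites without a DP partner and represses genes of S phase. Most histone genes sit in clusters, are transcribed while DNA replicates and give mRNAs that end in a stem-loop instead of a poly(A) tail. Replacement variants come from genes elsewhere in the genome, often with introns and with polyadenylated mRNA, and are made throughout the cell cycle. H3.3 is placed at active genes and telomeres, H2A.Z at promoters, H2A.X is phosphorylated around DNA breaks, macroH2A marks silent chromatin, and linker histones such as H1X bind the DNA between nucleosomes.

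Values are FPKM, that is fragments per kilobase of transcript scaled to the mapped total, as deposited; depth is not given in the sources used here. FPKM summed to between 351305 and 375954 per library. E2F7 had 9.48, 10.6 and 5.52 FPKM in siE2F7 cells at 0, 3 and 12 h, against 20.3, 29.4 and 16.6 FPKM in siNT cells, a log2 change of -1.37 ± 0.10 (SE; limma, adjusted p = 0.00102). Of 10 osteoblast lineage markers, 6 were listed at some time (RUNX2, ALPL, COL1A1, SPARC, SPP1 and TNFRSF11B), with sums of 688 to 844 FPKM in siE2F7 libraries and 806 to 943 FPKM in siNT libraries, while COL1A2, BGLAP, IBSP and SP7 were not. Of 7 blood cell markers LAPTM5 and CD68 were listed, with sums of 6.25 to 9.66 FPKM over all libraries. A gene that is not listed need not be low: H2AFY, not listed at 12 h, had 81.6 to 108 FPKM at 0 and 3 h. Each sum takes only the markers listed at its time. For the epithelial markers, 6 of 7 were listed and summed to 208, 231 and 210.2 FPKM in siE2F7 cells and 250.0, 275 and 307 FPKM in siNT cells. The 6 proliferation markers (MKI67, CCNB1, CDK1, TOP2A, PCNA and CCNE2) summed to 825, 965 and 1225 FPKM in siE2F7 cells and 643, 617 and 789 FPKM in siNT cells at 0, 3 and 12 h. The arms thus differed in proliferation transcripts at every time, and the part of this in the changes of histone variants was not tested. In libraries of whole cultures, more cells in a stage of the cycle and more RNA per cell cannot be told apart.

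When E2F7 was lowered, 3 of the 7 replacement variants described here and listed at all times rose. They were the linker histone gene H1FX, H3F3A, which encodes H3.3, and H2AFY2, which encodes macroH2A2. The other 4 did not pass the test, and among them H3F3B alone had a mean log2 change below 0. Among all 11886 genes the same test called 6.76% higher and 7.13% lower. The median log2 change was 0.22 over the 7 variants and -0.03 over all genes. The test was limma, blocked by time, and all log2 changes here are on the scale of log2(FPKM + 0.1), which understates changes of low genes. Nothing says that the 3 pairs of libraries were separate cultures, and the p-values then cover only the scatter of these samples, which may be technical.

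**Figure D1:**
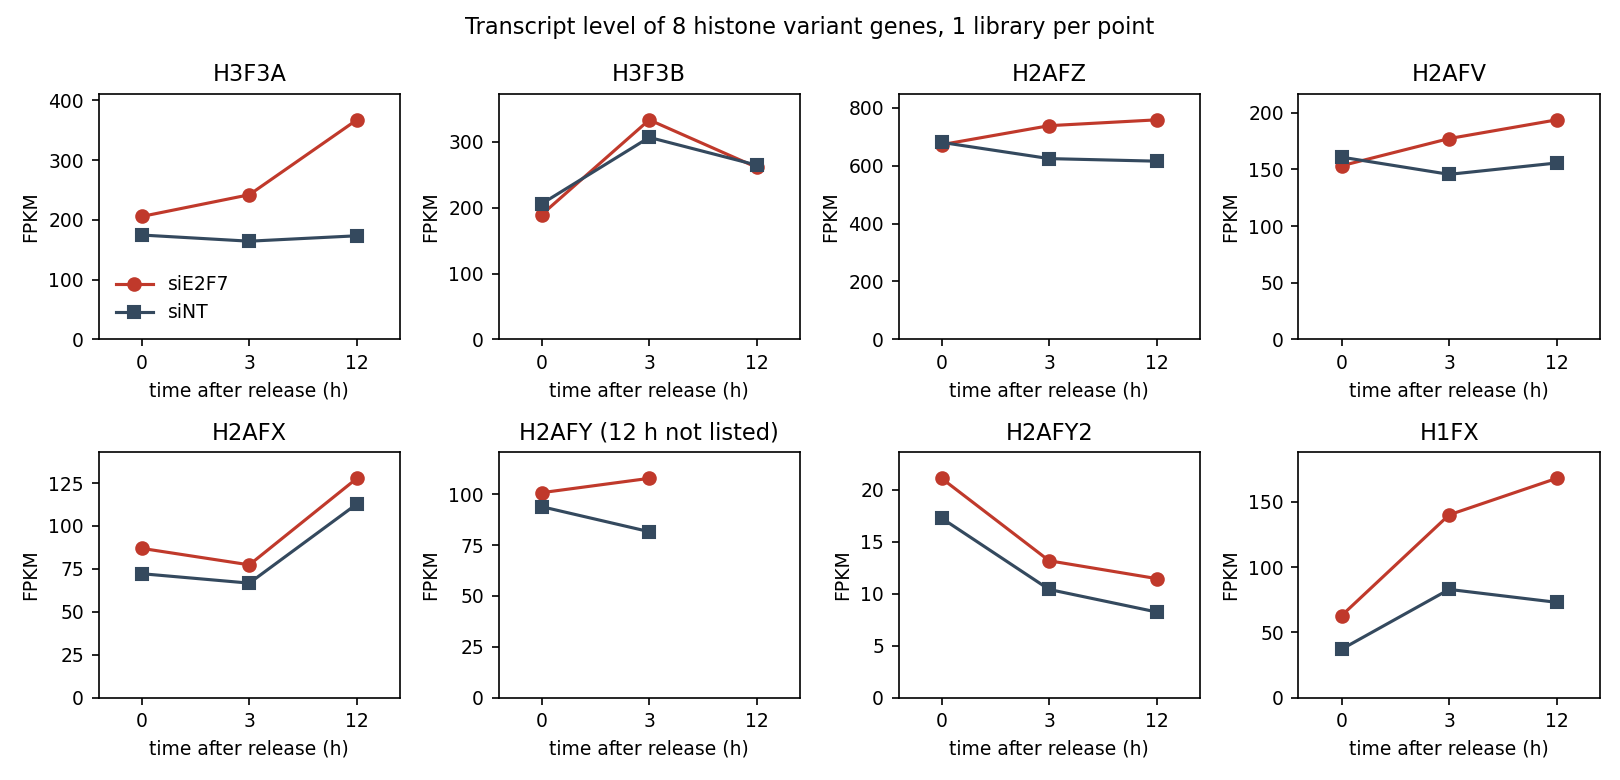
FPKM (vertical axes, each from 0) of the 8 genes in siE2F7 (circles) and siNT (squares) libraries at 0, 3 and 12 h after release (horizontal axes, evenly spaced); each point is 1 library and lines join the times of an arm. H1FX, H3F3A, H2AFY2 and H2AFX lie higher in siE2F7 at each time, as does H2AFY at 0 and 3 h, while H3F3B, H2AFZ and H2AFV cross.

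H3F3A and H3F3B lie on different chromosomes and encode the same H3.3 protein; H3F3A rose and H3F3B did not pass the test. H3F3A (hg19, chromosome 1, 226250408 to 226259703) stood at 206, 242 and 367 FPKM in siE2F7 cells at 0, 3 and 12 h, against 175, 164 and 173 FPKM in siNT cells. The gene was nearly flat through the siNT time course, with a highest value 1.06 times the lowest, while in siE2F7 cells every later time was higher than the one before. The siE2F7 library exceeded its siNT partner by 1.18-fold at 0 h, 1.47-fold at 3 h and 2.12-fold at 12 h. H3F3A rose by 0.63 ± 0.14 on the log2 scale (SE; limma, adjusted p = 0.0299), a call that ended without the libraries of 3 h (0.66, adjusted p = 0.0756) or of 12 h (0.40, adjusted p = 0.0638). Whether the gap differed between times was not tested, since each time has 1 library per arm.

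H3F3B (chromosome 17, 73772515 to 73775860) had 189, 333 and 261 FPKM in siE2F7 cells and 206, 307 and 265 FPKM in siNT cells. Neither arm was higher throughout: siE2F7 was below siNT at 0 and 12 h and above it at 3 h. Its log2 change was -0.01 ± 0.07 (SE; limma, adjusted p = 0.965). Both arms had their highest H3F3B level at 3 h, 1.76-fold over 0 h in siE2F7 cells and 1.49-fold in siNT cells.

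H3F3A made up 52.1%, 42.1% and 58.5% of the summed FPKM of the H3.3 gene pair in siE2F7 cells at 0, 3 and 12 h, against 45.9%, 34.9% and 39.6% in siNT cells. The summed level was 395, 576 and 629 FPKM in siE2F7 cells and 381, 471 and 438 FPKM in siNT cells, so the gap between the arms was 1.04-fold, 1.22-fold and 1.44-fold. The log2 ratio of H3F3A exceeded that of H3F3B by 0.36, 0.44 and 1.10 at the 3 times, a mean of 0.63 ± 0.41 (SD, n = 3 pairs). The two-sided exact permutation test of that difference gave p = 0.25, the smallest that 3 pairs allow. A related gene on chromosome 12, H3F3C, encodes a primate H3 variant and was listed at 55.0, 98.2 and 78.9 FPKM in siE2F7 cells and 61.1, 85.7 and 74.2 FPKM in siNT cells, with a log2 change of 0.04 (adjusted p = 0.754). H3F3C and several pseudogenes are close copies of the H3.3 mRNAs, and how the authors divided shared reads is not given in the sources used here, so the split between these genes is uncertain.

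**Figure D2:**
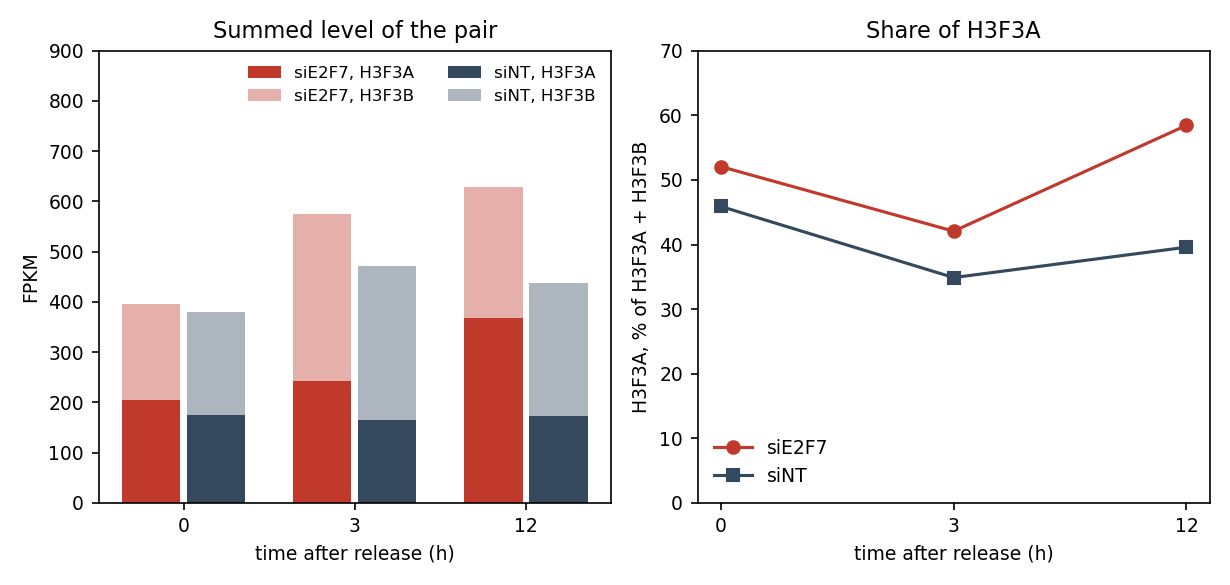
Left, FPKM of H3F3A (full colour) stacked under H3F3B (pale) in siE2F7 and siNT libraries at 0, 3 and 12 h; right, H3F3A as a percentage of the sum. The siE2F7 share lies above the siNT share at all times, and the gap is widest at 12 h (58.5% against 39.6%).

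The start regions of the H3.3 genes, from RefSeq (GRCh38.p14), are shown because these genes encode a single protein and H3F3A alone of the pair was called. Each window runs from 250 bases before to 50 bases after a start. Capitals mark matches on either strand to CCAAT, the box bound by NF-Y, to TATAAA, the TATA box, or to the CHR element TTTGAA or TTCGAA; the E2F letters TTTCCCGC, TTTGGCGC, TTTCGCGC and TTTGCCGC were also searched. RefSeq lists 4 starts for H3F3A. The last is printed, since from it the gene runs 9304 bases, nearest to the 9296 bases of the locus in the tables.
H3F3A, chr1:226062466-226062765, plus strand: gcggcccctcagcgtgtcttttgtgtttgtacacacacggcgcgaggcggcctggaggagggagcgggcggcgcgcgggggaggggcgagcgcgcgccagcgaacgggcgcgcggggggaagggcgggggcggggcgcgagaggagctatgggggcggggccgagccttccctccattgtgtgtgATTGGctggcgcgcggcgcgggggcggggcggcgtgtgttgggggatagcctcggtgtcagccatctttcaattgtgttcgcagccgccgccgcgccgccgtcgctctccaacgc
H3F3B, chr17:75779730-75780029, minus strand: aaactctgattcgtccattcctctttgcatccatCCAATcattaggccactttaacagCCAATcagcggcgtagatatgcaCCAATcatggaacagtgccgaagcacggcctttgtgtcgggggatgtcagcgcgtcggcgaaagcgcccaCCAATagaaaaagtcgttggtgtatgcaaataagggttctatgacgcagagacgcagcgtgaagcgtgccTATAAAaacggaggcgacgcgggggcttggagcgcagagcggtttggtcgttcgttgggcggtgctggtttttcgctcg
The H3F3A window has 1 CCAAT box, at 65 bases before the start, no TATA box and a G and C content of 74.0%. The H3F3B window has 4 CCAAT boxes, a TATA box at 29 bases before the start and a G and C content of 54.0%. Among 35116 RefSeq windows of the same length, 34.6% hold CCAAT, 11.5% TATAAA, 16.4% a CHR element and 3.31% an E2F word. No E2F word was found in the windows of the 8 variants, which says only that those letters are missing from these windows.

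The gene that rose most, H1FX, encodes linker histone H1X, a variant with little likeness to other H1 proteins that accumulates in nucleoli in G1 in human cells. H1FX had 62.8, 140.0 and 168 FPKM in siE2F7 cells and 37.2, 83.0 and 73.1 FPKM in siNT cells at 0, 3 and 12 h. Its siE2F7 library was the higher at every time, by 1.69-fold, 1.69-fold and 2.30-fold, although the siE2F7 value at 0 h lay under the siNT values of 3 and 12 h. The log2 change was 0.90 ± 0.10 (SE; limma, adjusted p = 0.00257), the rank of 117 from the top among 11886 genes. It passed without the libraries of any 1 time (0.76 to 0.98, adjusted p = 0.000815 to 0.0111). The locus in the tables (hg19, chromosome 3, 129033614 to 129043412) spans 9799 bases where RefSeq gives the gene 1516, so it takes in more than the gene, and whether reads from outside the gene were counted is not known.

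The H1FX start region is shown because this gene had the largest rise of the set, with its TATA box in capitals, 31 bases before the start.
H1FX, chr3:129316237-129316536, minus strand: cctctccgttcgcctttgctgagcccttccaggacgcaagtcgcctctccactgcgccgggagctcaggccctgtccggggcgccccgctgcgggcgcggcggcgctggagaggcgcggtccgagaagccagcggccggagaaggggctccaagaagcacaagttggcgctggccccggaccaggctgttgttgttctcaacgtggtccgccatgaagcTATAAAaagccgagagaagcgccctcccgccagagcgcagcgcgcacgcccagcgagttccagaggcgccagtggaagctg
This RefSeq window (GRCh38.p14) held no CCAAT box and no CHR element. Neither did the windows of H2AFY2 and of start 3 of the 4 H3F3A starts, genes that were called. The same held for 1 of the 2 windows of H2AFY, which did not pass. The windows of H2AFX and H2AFZ had 4 and 3 CCAAT boxes, 1 CHR element each and, like H1FX, 1 TATA box. That of H2AFV had 4 CCAAT boxes, 1 CHR element and no TATA box. H2AFX, H2AFZ and H2AFV did not pass either, and a link between boxes and calls was not tested.

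**Figure D3:**
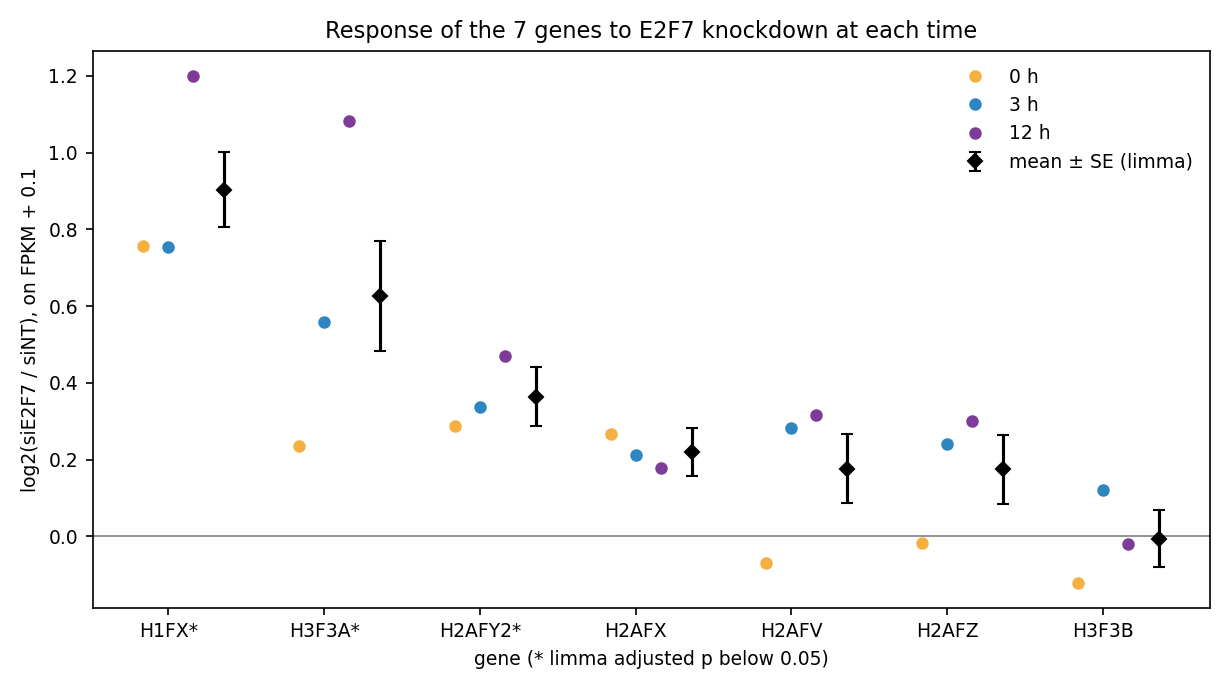
The log2 ratio of siE2F7 to siNT, on FPKM + 0.1 (vertical axis), for the 7 genes listed at all times; coloured points are single times and diamonds are the limma mean with its SE. H1FX leads at 0.90, H3F3B is lowest at -0.01, and H2AFZ, H2AFV and H3F3B have points on both sides of 0.

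H2AFZ and H2AFV encode the H2A.Z isoforms, which differ at few residues, and their log2 ratios lay close to each other at each time. H2AFZ (chromosome 4, 100869244 to 100871512), the most abundant variant in each library, had 673, 738 and 758 FPKM in siE2F7 cells and 680.5, 624 and 616 FPKM in siNT cells at 0, 3 and 12 h. H2AFV (chromosome 7, 44866488 to 44887725) had 153, 177 and 194 FPKM in siE2F7 cells and 161, 146 and 156 FPKM in siNT cells. In both genes the arms crossed, with siE2F7 lower at 0 h and higher at 3 and 12 h. The log2 ratios were -0.02, 0.24 and 0.30 for H2AFZ and -0.07, 0.28 and 0.32 for H2AFV. Neither passed: H2AFZ had a mean log2 change of 0.18 ± 0.09 (SE; limma, adjusted p = 0.237) and H2AFV of 0.18 ± 0.09 (adjusted p = 0.235). After quantile normalization H2AFZ was called higher (0.19, adjusted p = 0.0423).

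H2AFZ held 81.4%, 80.6% and 79.7% of the H2A.Z sum in siE2F7 cells and 80.9%, 81.1% and 79.8% in siNT cells, a share that moved by less than 2 percentage points across all 6 libraries. The log2 ratios of the H2A.Z genes differed by -0.001 ± 0.05 (SD, n = 3 pairs). H2A.Z transcripts made up 59.3%, 53.2% and 50.4% of the FPKM of the 7 variants in siE2F7 cells and 62.4%, 55.0% and 55.0% in siNT cells.

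H2AFX encodes H2A.X, whose mRNA is made both with a stem-loop end and with a poly(A) tail, so that what is counted depends on how RNA was selected; the labels name an Illumina TruSeq RNA kit and no selection step. H2AFX (chromosome 11, 118964585 to 118966177) had 87.0, 77.4 and 128 FPKM in siE2F7 cells and 72.2, 66.7 and 113 FPKM in siNT cells. The siE2F7 library was the higher at each time, by 1.20-fold, 1.16-fold and 1.13-fold. The log2 change of 0.22 ± 0.06 did not pass (SE; limma, adjusted p = 0.0583), while median scaling (0.24, adjusted p = 0.0409), quantile normalization (0.21, adjusted p = 0.0462) and leaving out small RNA entries (adjusted p = 0.049) put it past the threshold. The 12 h level was 1.47-fold that of 0 h in siE2F7 cells and 1.56-fold in siNT cells.

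The macroH2A genes encode histones with a large folded domain behind the H2A part. H2AFY2 (macroH2A2; chromosome 10, 71812357 to 71892690), the least abundant of the set, had 21.1, 13.2 and 11.5 FPKM in siE2F7 cells and 17.3, 10.4 and 8.26 FPKM in siNT cells. It declined over the times in both arms, and siE2F7 lay above siNT at each time by 1.22-fold, 1.26-fold and 1.39-fold. H2AFY2 rose by 0.36 ± 0.08 on the log2 scale (SE; limma, adjusted p = 0.0241), a call that ended without 0 h (adjusted p = 0.0609), 3 h (0.09) or 12 h (0.0701). It shares its locus in the tables with AIFM2, a flavoprotein gene, whose log2 change was -0.17 (adjusted p = 0.186), and reads of the overlapping genes may have been divided between them.

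H2AFY (macroH2A1; chromosome 5, 134670071 to 134735577) had 100.7 and 108 FPKM in siE2F7 cells and 93.9 and 81.6 FPKM in siNT cells at 0 and 3 h. The siE2F7 library was higher at both times, by 1.07-fold and 1.32-fold. With genes listed at any time let in, the log2 change over these 2 times was 0.25 ± 0.10 and did not pass (SE; limma, adjusted p = 0.169). H2AFY2 was 17.3% and 10.9% of the macroH2A sum in siE2F7 cells at 0 and 3 h, and 15.6% and 11.3% in siNT cells.

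Ordered by level, which FPKM allows since it is per length, the siE2F7 arm ran from H2AFZ at 673 to 758 FPKM down to H2AFY2 at 11.5 to 21.1 FPKM. H3F3A (206 to 367), H3F3B (189 to 333) and H2AFV (153 to 194) came between, followed by H1FX (62.8 to 168) and H2AFX (77.4 to 128). Over the 3 times the ranges of H3F3A and H3F3B overlapped, as did those of H3F3B and H2AFV, of H2AFV and H1FX and of H1FX and H2AFX. In the siNT arm H2AFZ was again above all others (616 to 680.5 FPKM) and H3F3A (164 to 175) lay below H3F3B (206 to 307) without overlap. H2AFX (66.7 to 113) and H1FX (37.2 to 83.0) overlapped there too. The 7 variants together made 0.383%, 0.467% and 0.518% of all FPKM in siE2F7 cells at 0, 3 and 12 h, and 0.359%, 0.399% and 0.375% in siNT cells.

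Between single libraries of a time, 1 of 7 variants differed by at least 1.5-fold at 0 h (H1FX), where 7.10% of all genes did. At 3 h it was again H1FX (7.80% of all genes), and at 12 h H3F3A and H1FX (11.7%). Over time, H1FX was at least 2-fold from its 0 h level at 3 h, at 2.23-fold in both arms, in siE2F7 cells (3.00% of all genes) and in siNT cells (3.00%). At 12 h this held for H1FX in siE2F7 cells, at 2.67-fold (4.48% of all genes), and for H2AFY2 in siNT cells (3.88%), where H1FX stood at 1.97-fold. H2AFY2 was at 0.54 and 0.48 of its 0 h level at 12 h in siE2F7 and siNT cells. These comparisons set 1 library against 1 and have no test; whether the tables of different times were scaled together is not known, and the median gene lay within 0.1 of 0 on the log2 scale in each of them.

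The genes most like H1FX in profile, by Euclidean distance of centred log2 values over the 6 libraries, were LOC100507127 (0.51), PGM2L1 (0.56) and CDKN2D (0.80), where the median gene lay at 1.90. CDKN2D, a CDK4/6 inhibitor, had 7.92, 15.8 and 15.6 FPKM in siE2F7 cells and 6.34, 7.57 and 10.6 FPKM in siNT cells. Closest to H3F3B, the variant with the lowest mean change, were H3F3C (0.10), TSSK3 (0.10) and TNFRSF12A (0.13), with the median gene at 0.93. H3F3C is a close copy of the H3.3 mRNAs and how shared reads were divided is not given, so its likeness to H3F3B is uncertain. TNFRSF12A, the receptor for the cytokine TWEAK, had 93.0, 154 and 128 FPKM in siE2F7 cells and 105, 148.6 and 138 FPKM in siNT cells, highest at 3 h in both arms as H3F3B was. These are descriptions over 6 libraries that share the time course.

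The replication-dependent histone genes that passed the test fell. Of 70 replication-dependent histone genes 16 were listed at all times, and 4 of them fell while 0 rose (limma; at an unadjusted p under 0.05, 9 were lower and 0 higher). That is 25.0% called lower, where 7.13% of all genes were, and 56.2% lower at an unadjusted p under 0.05, where 16.7% of all genes were. This list and those that follow were chosen with earlier results of these data known, so their shares are descriptions only. Most mRNAs of this class lack a poly(A) tail, and no RNA selection step is named in the labels, so whether the whole transcript pool or a polyadenylated part of it was measured is not known. All 16 lay below 0, and the median log2 change was -0.80, with 0.22 for the replacement variants and -0.03 for all genes. Those that fell were the H2B genes HIST1H2BK (-1.16 ± 0.23), HIST1H2BC (-1.01 ± 0.17), HIST1H2BD (-0.89 ± 0.23) and HIST1H2BE (-0.73 ± 0.18). Without the libraries of 1 or another time all these calls but that of HIST1H2BC ended. HIST1H2BK had 36.2, 61.8 and 55.5 FPKM in siE2F7 cells and 51.8, 122 and 218 FPKM in siNT cells at 0, 3 and 12 h. The others were low, at 2.05 to 14.8 FPKM. Each gene had its lowest log2 ratio at 12 h (-1.97 to -1.23), a difference between times that was not tested. H2B genes are near copies of each other, so reads may have been divided among them. Of 12 further variants, 3 were listed, and CENPA, the centromeric H3, rose by 0.39 ± 0.09 (SE; adjusted p = 0.0312, and 0.0154 to 0.887 over the alternatives). CENPA had 33.1, 48.2 and 107 FPKM in siE2F7 cells and 30.0, 35.0 and 72.6 FPKM in siNT cells.

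The factors that place or modify these variants are set beside the 6.76% of all genes called higher and the 13.5% higher at an unadjusted p under 0.05. Of 7 measured H3.3 deposition factors, 1 rose and 0 fell (limma, with 1 and 0 at an unadjusted p under 0.05), 14.3% called higher. The mean log2 change was above 0 in 5 of the 7 and below 0 in 2. The called gene was DEK, a chromatin protein that binds H3.3, at 0.37 ± 0.07. HIRA, an H3.3 chaperone that was not called, had a log2 change of 0.13 (limma, adjusted p = 0.307). Of 33 genes of the SRCAP, TIP60 and INO80 complexes and of ANP32E, 2 rose and 0 fell (4 and 1 unadjusted). That is 6.06% called higher, near the share of all genes. The called genes were ANP32E, which takes H2A.Z out of nucleosomes, at 0.47 ± 0.08, and MCRS1, a subunit of INO80, at 0.26 ± 0.07, a call lost without any 1 time. Of 16 kinases, phosphatases and readers of H2A.X, 4 rose and 0 fell (5 and 0 unadjusted), 25.0% called higher. EYA2, a phosphatase with a low level (1.76 to 5.10 FPKM over all libraries), rose by 0.96 ± 0.19. PPM1D, another phosphatase, rose by 0.40 ± 0.07, BAZ1B, a tyrosine kinase of H2A.X, by 0.39 ± 0.06 and PRKDC, the catalytic subunit of DNA-PK, by 0.27 ± 0.07.

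The replication-coupled chaperones had 10 of 14 members called higher and 0 lower (13 and 0 unadjusted), a share of 71.4%, with a median log2 change of 0.43. MCM2, a helicase subunit that also binds H3 and H4, rose by 1.27 ± 0.09, RBBP4 by 0.74 ± 0.09, CHAF1B by 0.69 ± 0.10 and CHAF1A by 0.66 ± 0.08; the last 3 are the subunits of CAF-1, which loads newly made H3 and H4 behind the fork. RBBP4 overlaps SYNC in the tables, so its reads may be shared. The smallest called changes were those of ASF1B (0.45), HAT1 (0.34), RBBP7 (0.33) and NASP (0.32), chaperones or modifiers of new H3 and H4. Of 4 measured macroH2A partners PARP1 rose (0.38 ± 0.06) and 0 fell (2 and 0 unadjusted), 25.0% called higher. In histone mRNA processing 2 of 13 rose and 1 fell (2 and 1 unadjusted). That is 15.4% called higher and 7.69% lower, where 6.76% and 7.13% of all genes were. SLBP, the stem-loop binding protein, rose by 0.79 ± 0.10 and CASP8AP2 by 0.59 ± 0.11, and LSM10, of the U7 particle, fell by 0.52 (SE 0.12). The medians of the H3.3, H2A.Z, H2A.X, macroH2A and mRNA processing lists were 0.13, 0.03, 0.06, 0.06 and 0.11. The lists were chosen with earlier results of these data known and were not compared by a test. Without the libraries of 3 h, and again without those of 12 h, the calls of CENPA, DEK, HAT1, RBBP7, NASP and LSM10 ended. Without 3 h so did those of PPM1D and ASF1B, without 0 h or 3 h that of CASP8AP2, and without any 1 time that of PRKDC. Of the 26 called genes of these lists, replication-dependent histones and CENPA included, 12 were no longer called without the variance trend and 26 without the time block.

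**Figure D4:**
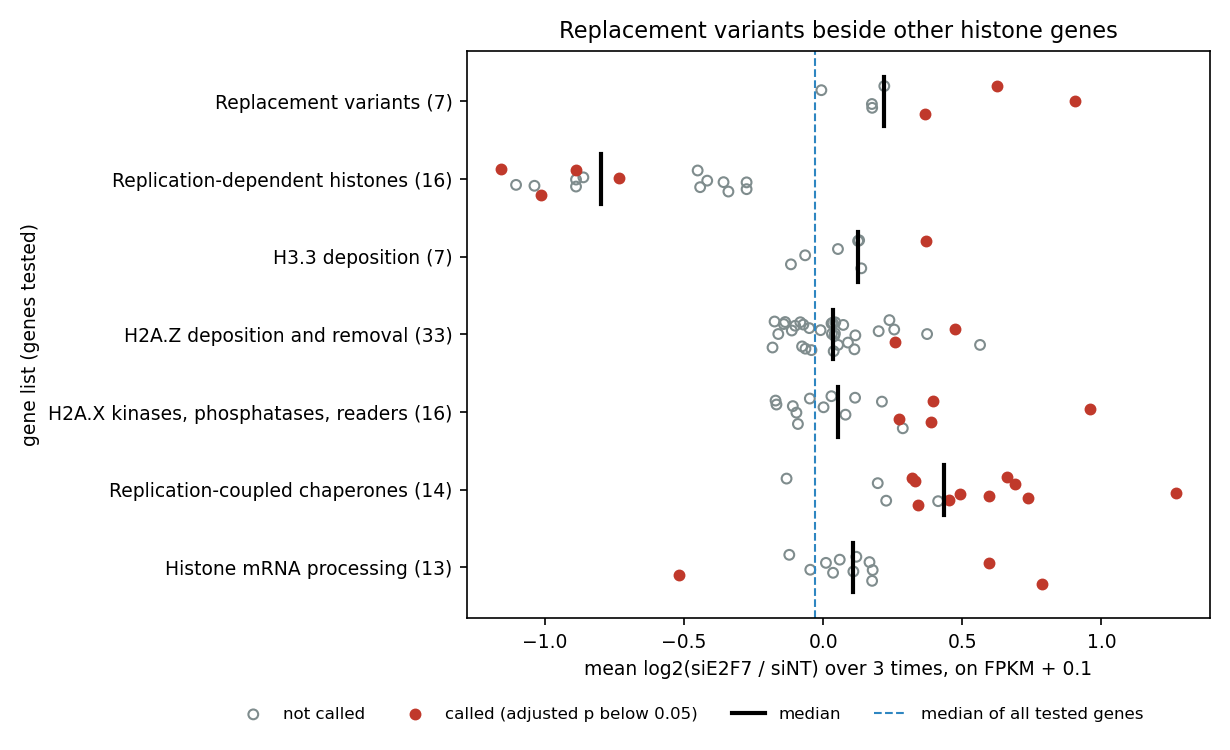
Mean log2 ratio of siE2F7 to siNT over 3 times, on FPKM + 0.1 (horizontal axis), of each tested gene of 7 lists (rows, number of genes in brackets); filled points are called, bars are list medians and the dashed line is the median of all tested genes. The replacement variants run from -0.01 to 0.90 with a median of 0.22, while all 16 replication-dependent histone genes lie below 0.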

How the data were processed

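Per the labels' protocols, TRIzol and RNeasy columns gave the RNA, and TruSeq RNA kits (Illumina) the libraries. The authors deposited FPKM per gene; the submitters' processing notes name CASAVA 1.8 and hg19 (GRCh37), and no source used here names the aligner, annotation or filters. The depth of the libraries is not given either, so no counting error is stated. Tables were joined by their identifiers: 13161 genes were listed at some time and 11886 at all 3, of which 62 were at 0 in a library and 143 were small RNA entries.

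All 11886 genes were fitted as log2(FPKM + 0.1) with limma 3.58.1 (R 4.3.3), using a time block, a variance trend and Benjamini-Hochberg adjustment at 0.05 (2 residual and 5.41 prior degrees of freedom). It was tested on simulated data with independent scatter and the same change at every time. That test does not bear on changes that differ between times or on libraries that were not separate cultures. In the fit to the real data, the spread joins the scatter of the 3 paired ratios, any effect of time on them included, with that of genes of like level. Positions are hg19, counted from 1; start regions are GRCh38.p14. Named genes are the variants, E2F7, up to 4 called genes at each end of each list and the 3 nearest profiles of the variants with the highest and lowest change; HIRA, H3F3C, AIFM2 and the markers were added for context. Of the 9 variants that the choice by name gave, 1 was fitted with all genes but is not reported here. Members and lists were chosen with earlier results of these data known. Alternatives were other pseudocounts (0.01, 1), a minimum mean of 1 FPKM, genes listed at any time, no small RNA entries, quantile and median scaling, no variance trend, no time block and each time left out.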

Additional observations from a re-analysis of the deposited data

Results flagged for a closer look

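For 3 variants the siE2F7 library was below siNT at some times and above it at others. The log2 ratios at 0, 3 and 12 h were -0.0169, 0.24 and 0.30 for H2AFZ, -0.0701, 0.28 and 0.32 for H2AFV, and -0.12, 0.12 and -0.0187 for H3F3B. Each ratio rests on 1 library per arm, and the difference between times was not tested.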

How the results depend on the processing

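Over all genes, 1650 were called (803 higher, 847 lower). The count was 852 without the variance trend (400 higher, 452 lower) and 32 without the time block (15 and 17); without the libraries of 1 time it ranged from 763 to 1109 (332 to 557 higher, 431 to 560 lower). Of the 7 variants 3 were called, against 5 after quantile normalization (with H2AFX and H2AFZ), 1 without the variance trend (H1FX), 0 without the time block (limma; 1 at an unadjusted p under 0.05) and 1 to 2 without the libraries of 1 time. Of the 12 alternatives, the call of H1FX ended under 1 (no time block, adjusted p = 0.528), of H3F3A under 4 and of H2AFY2 under 5. None of the 12 turned the sign of H1FX, H3F3A, H2AFY2, H2AFX, H2AFZ or H2AFV; H3F3B, not called, ran from -0.07 to 0.05. H1FX ran from 0.76 to 0.98, H3F3A from 0.40 to 0.82 and H2AFY2 from 0.31 to 0.40. A fit without the time block counts differences between times as scatter. The log2 change of H1FX stayed at 0.90 there, with an SE of 0.42 against 0.10 in the main fit. A fit that leaves out a time has fewer samples. The causes of the shifts were not tested. No paired analysis by replicate number was possible because the labels give none; time is the block throughout. Of the called list genes, HIST1H2BD, HIST1H2BE, HIST1H2BK, CENPA, DEK, MCRS1, PRKDC, PPM1D, RBBP7, NASP, HAT1 and LSM10 were not called without the variance trend. Depth, and with it the counting error of low genes, is not known.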
